A study of Mus musculus with 34 samples.

Results

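The 50 genes described here encode the machinery that copies DNA in S phase and the enzymes that make its deoxynucleotides. They were taken by symbol from 10 roles: origin licensing, the MCM ring, helicase activation, polymerase alpha and primase, polymerases delta and epsilon, the sliding clamp and its loader, the single-strand binding protein RPA, joining of Okazaki fragments with fork protection, deoxynucleotide supply, and the copying of chromatin marks. They are 50 of the 27179 gene identifiers counted, and 49 of them passed the filter on low counts. The member that did not pass, Mcm2, had mean levels between 0.135 and 0.977 CPM, which here are counts scaled to a common normalised library total, in the 6 groups.

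The libraries came from CD4 T cells of C57BL/6 mice, 34 in all, as 3′ RNA sequencing counts. Naive cells from that strain were grown in cRPMI medium for 3.5 days on plate-bound antibodies against CD3 and CD28, which stand in for antigen and costimulation, then stained, sorted and lysed. Each group carries a culture code and a number. TfhA_4e4 had 5 libraries, Tfh5_4e4 had 6, and the Tfh2 code had 6 at 1e4, 5 at 2e4, 6 at 4e4 and 6 at 6e4. The labels do not say which cytokines or antibodies a code stands for, what the number counts or which cells were sorted, so the groups are called by their labels. Nothing says that libraries of a group came from separate mice or cultures, and p-values here reflect how far the libraries of a group differ, which may be technical variation. Isolated cells were grown in vitro, outside a lymph node, which limits them as a model of follicular helper T cells.

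Replication origins are licensed in G1, when the origin recognition complex, Cdc6 and Cdt1 load the MCM ring onto DNA as an inactive helicase. In S phase, Cdc45 and the GINS complex join the ring and it begins to unwind DNA, polymerase alpha with primase lays down primers, and polymerases epsilon and delta extend them on the PCNA clamp, which the RFC complex loads. Ribonucleotide reductase, thymidylate synthase and thymidine kinase supply the deoxynucleotides. Many of these genes are transcribed at the G1 to S transition under E2F factors, and naive T cells, which rest in G0, switch them on when they are activated.

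The members share letters in their promoters that the choice by symbol did not use. RefSeq windows on GRCm38.p6, 250 bases before to 50 after an annotated start, were at hand for 41 of the 50 genes. The word TTCGCGC, its variants TTGGCGC and TTCCCGC, and the variant TTGCCGC, which all match the core of E2F sites, were searched on both strands, and overlapping words were counted separately. At least 1 word lay in a window of 27 of the 41 members (65.9%), against 20.3% of the 8853 tested genes with a window and 10.9% of all 27025 genes with a window. The CCAAT word lay in 63.4% of the members and 43.2% of the tested genes with a window, and the words TTTGAA and TTCGAA, found in late cell-cycle promoters, in 21.95% of the members and 16.2% of the tested genes. A match describes letters in a window and does not show that a factor binds there.

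Windows of 4 members, picked after their values were seen, are printed 5′ to 3′ on the gene's own strand with the E2F words in capitals. Rfc3 (chr5:151651159-151651458, minus strand) had the largest difference of TfhA_4e4 over both Tfh2_4e4 and Tfh2_1e4 in the clamp loader, and its words begin at positions -9 and 1 from the annotated start. Mcm6 (chr1:128359656-128359955, minus strand), the member that was higher in Tfh5_4e4 than in Tfh2_4e4, holds 5 words. Mcm5 (chr8:75109259-75109558, plus strand), its partner in the ring, holds 3 words and was higher in TfhA_4e4 than in Tfh2_4e4. Tyms (chr5:30073576-30073875, minus strand) had the steepest decline across the Tfh2 numbers and holds none of the 4 words.
Rfc3: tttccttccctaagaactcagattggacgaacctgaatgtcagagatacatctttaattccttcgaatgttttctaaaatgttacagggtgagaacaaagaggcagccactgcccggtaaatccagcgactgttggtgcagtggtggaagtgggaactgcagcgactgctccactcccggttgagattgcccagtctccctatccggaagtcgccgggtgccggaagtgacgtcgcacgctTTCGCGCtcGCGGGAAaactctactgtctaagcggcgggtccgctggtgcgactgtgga
Mcm6: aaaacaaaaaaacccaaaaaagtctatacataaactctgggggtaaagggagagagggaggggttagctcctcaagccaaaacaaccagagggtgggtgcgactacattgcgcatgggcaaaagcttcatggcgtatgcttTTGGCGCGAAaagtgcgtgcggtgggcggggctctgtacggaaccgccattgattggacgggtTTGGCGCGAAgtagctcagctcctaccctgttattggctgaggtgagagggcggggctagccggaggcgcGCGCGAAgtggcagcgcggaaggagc
Mcm5: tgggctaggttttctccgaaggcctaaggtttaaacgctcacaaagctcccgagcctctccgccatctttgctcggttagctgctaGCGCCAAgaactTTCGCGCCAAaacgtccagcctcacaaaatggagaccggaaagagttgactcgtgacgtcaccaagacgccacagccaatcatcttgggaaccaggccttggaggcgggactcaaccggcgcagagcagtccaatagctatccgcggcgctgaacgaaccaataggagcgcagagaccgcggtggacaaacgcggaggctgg
Tyms: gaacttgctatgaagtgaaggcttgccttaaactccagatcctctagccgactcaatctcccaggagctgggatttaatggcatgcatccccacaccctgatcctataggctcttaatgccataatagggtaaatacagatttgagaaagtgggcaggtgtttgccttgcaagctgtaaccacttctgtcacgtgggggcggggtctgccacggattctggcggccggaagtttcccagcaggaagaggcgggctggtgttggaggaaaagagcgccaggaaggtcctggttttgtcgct

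**Figure D1:**
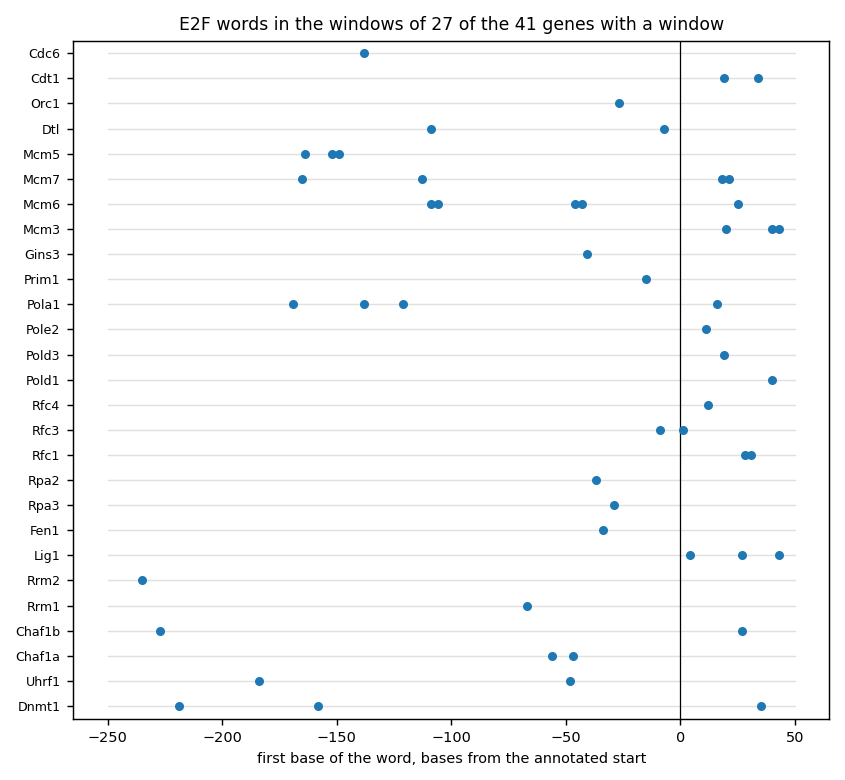
Position of each E2F word in the promoter windows of the 27 members that hold one. The x axis gives the first base of the word from the annotated start, in bases, from 250 before it to 50 after it, and each row is a gene. Of the 52 words, 35 (67.3%) began between -100 and +50, against 55.5% of the words in all windows.

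Library totals ran between 4481509 and 9934245 counts, of which the leading 2 identifiers held between 39.2% and 53.8%. Without them, 2292557 to 5343465 counts were left, and the 50 genes made up 0.234% to 0.693% of these, or 7987 to 32488 counts per library. All 10 markers of CD4 T cells had counts in every group, summing to 3309 to 3486 CPM of these remaining counts in TfhA_4e4 libraries and 3794 to 5034 CPM in the others. The NK cell list, 3 of 4 genes detected with Ncr1 at 0 and Klrk1 holding most of the counts, summed to 11.1 to 16.2 CPM in TfhA_4e4 and 0 to 3.20 CPM elsewhere. A sum that rests mostly on 1 gene does not show that NK cells were present. The dendritic cell list, 3 of 4 genes detected with Siglech at 0 and Xcr1 holding most of the counts, summed to 1.32 to 4.17 CPM in TfhA_4e4 and 4.78 to 18.9 CPM elsewhere. Its medians were 11.7, 11.6, 6.16 and 6.43 CPM in Tfh2 at 1e4, 2e4, 4e4 and 6e4, so it moves with the Tfh2 number too. Mitochondrial ribosomal RNA took 14.8% ± 2.19 of the remaining counts in TfhA_4e4 (SD, n = 5) and group means between 8.41% and 10.2% in the other 5 groups. It therefore moves with every TfhA_4e4 difference below. Its range was 12.6% to 17.3% in TfhA_4e4 libraries and at most 11.5% in all others, with no overlap. Fits with this share as a covariate thus cannot tell it apart from the TfhA code, and calls kept or lost in them do not separate the 2. The part of these 3 measures in the results was not tested beyond those fits. A pair of libraries stood apart from their groups. Tfh2_4e4 replicate 3 had 90.1 CPM of Nrn1 and the rest of Tfh2_4e4 17.3 to 31.6 CPM. Tfh2_2e4 replicate 6 had 61.1 CPM and the rest of Tfh2_2e4 4.13 to 18.5 CPM. Both also led their groups in S100a6 and Tbx21, and results that change without them are given with both values. These 3 genes were highest in TfhA_4e4, where Nrn1 had 283 to 399 CPM, S100a6 415 to 588 CPM and Tbx21 22.1 to 37.7 CPM. In these genes the pair thus lay toward TfhA_4e4, and the reason was not tested.

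The summed level of the 50 genes was high in TfhA_4e4, low in Tfh5_4e4 and fell across the Tfh2 numbers. It averaged 2653 ± 122 CPM in TfhA_4e4 (SD, n = 5) and 1449 ± 71.9 CPM in Tfh5_4e4 (n = 6). Within Tfh2 it averaged 3066 ± 156 CPM at 1e4 (n = 6), 2539 ± 121 CPM at 2e4 (n = 5), 1754 ± 153 CPM at 4e4 (n = 6) and 1415 ± 108 CPM at 6e4 (n = 6). Every TfhA_4e4 library lay in or above the range of Tfh2_2e4, although the label number was that of Tfh2_4e4. In ratios of means, TfhA_4e4 was at 1.51 of Tfh2_4e4 and 0.865 of Tfh2_1e4, Tfh5_4e4 was at 0.826 of Tfh2_4e4, and Tfh2_6e4 was at 0.462 of Tfh2_1e4. In bulk RNA a smaller share of cells in S phase cannot be told apart from less RNA per cell.

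**Figure D2:**
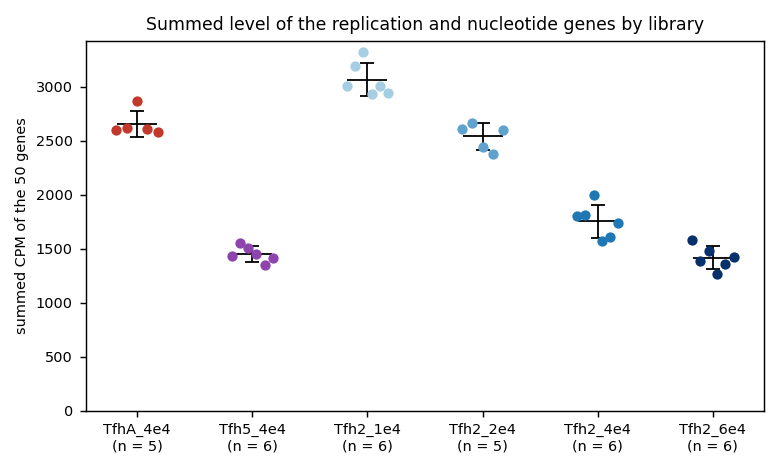
Summed level of the 50 genes in each library, in CPM, by group, with lines for the group mean and bars for the SD. TfhA_4e4 libraries lie between 2576 and 2869 CPM, above every Tfh5_4e4, Tfh2_4e4 and Tfh2_6e4 library.

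Gene by gene, 36 of the 49 tested members were higher and 0 lower in TfhA_4e4 than in Tfh2_4e4, by edgeR's quasi-likelihood test at an adjusted p under 0.05, while 32.8% of all 11357 tested genes were called in that comparison, 15.5% higher and 17.4% lower. The median member log2 fold change was 0.76, and the median over all tested genes -0.01. Against Tfh5_4e4, TfhA_4e4 was higher for 37 members and lower for 2, Mcm6 and Dck, with a median of 1.15. That comparison called 39.5% of all tested genes, 19.1% higher and 20.4% lower. Tfh5_4e4 had 1 member higher (Mcm6) and 8 lower than Tfh2_4e4, with a median of -0.29, where 3.11% of all tested genes were called, 1.41% higher and 1.7% lower. Without the pair of libraries that stood apart, 6 members and 2.38% of all tested genes were called between Tfh5_4e4 and Tfh2_4e4, and Mcm6, Cdc45 and Uhrf1 lost their calls (adjusted p = 0.0674, 0.112 and 0.142). These comparisons share libraries and are not independent of each other. In 25 members every TfhA_4e4 library was above every Tfh2_4e4 library, a pattern of 9.53% of all tested genes (9.86% for the opposite one), while in 33 members every TfhA_4e4 library was above every Tfh5_4e4 library, against 12.6% of all tested genes. In 3 members, Mcm3, Cdc6 and Rrm1, every Tfh5_4e4 library was below every Tfh2_4e4 library (1.21% of all tested genes), and in 0 members every one was above (1.04%).

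Within the Tfh2 code the slope on the log2 of the label number was negative and called for 47 of 49 members and positive for 0, with a median log2 change of -0.50 per doubling, where 46.9% of all tested genes had a called slope, 24.1% positive and 22.8% negative. The exceptions were Prim2, the large primase subunit, at -0.03, and Rpa1, the large RPA subunit, at 0.05. Rpa1 had only 0 to 2.87 CPM per library, so few counts stand behind its slope. The mean level was lower at each step of the series in 39 of the 49, a pattern held by 19.5% of all tested genes. Of the single steps, Tfh2_2e4 was lower than Tfh2_1e4 for 4 members, Mcm6, Gins1, Rrm1 and Rrm2 (median of all -0.28), where 5.26% of all tested genes were called, 4.06% higher and 1.2% lower. Tfh2_4e4 was lower than Tfh2_2e4 for 28 members (median -0.63), where 13% were called, 7.59% higher and 5.4% lower. Tfh2_6e4 was lower than Tfh2_4e4 for 9 members (median -0.34), where 1.48% were called, 0.616% higher and 0.863% lower. In these 3 steps 0 members were called higher. Without the pair of libraries that stood apart, Tfh2_6e4 was lower than Tfh2_4e4 for 4 members, where 0.783% of 11491 tested genes were called in either direction. The change over the step to 4e4 minus that over the step to 2e4 had a median of -0.37 over the members, and no single member passed the test of that difference by edgeR, DESeq2 or limma-voom (0.106% of all tested genes called by edgeR, 0.044% higher and 0.0616% lower). At an unadjusted p under 0.05, edgeR put 7 members lower and 0 higher in that difference. The share of all tested genes at that unadjusted threshold was not computed, so no result about the members is read from this count.

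TfhA_4e4 was also set against Tfh2_1e4, the Tfh2 group with the highest summed level. That level and the counts here come from the same libraries. These groups differ in both code and label number, which cannot be told apart in this comparison. Here 5 members were higher, Pold1, Pold3, Rfc2, Rfc3 and Rfc5, and 13 lower, with a median of -0.14, where 41.8% of all tested genes were called, 21.7% higher and 20% lower. With the share of mitochondrial ribosomal RNA as a covariate, 4 were higher and 4 lower, the median was 0.106, and 24.9% of all tested genes were called. Cdc6, Cdt1, Mcm3 and Prim2 then changed sign, and Pold3, Rfc5, Mcm4, Fen1, Rrm1, Rrm2, Dut and Dck lost their calls, with adjusted p between 0.0666 and 0.815. By mean level alone, TfhA_4e4 was above all 4 Tfh2 groups in 19 members (29.8% of all tested genes) and below all 4 in 5 (29.7%). Tfh5_4e4 was above all 4 in 0 members (16.1% of all tested genes) and below all 4 in 18 (13.6%).

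**Figure D3:**
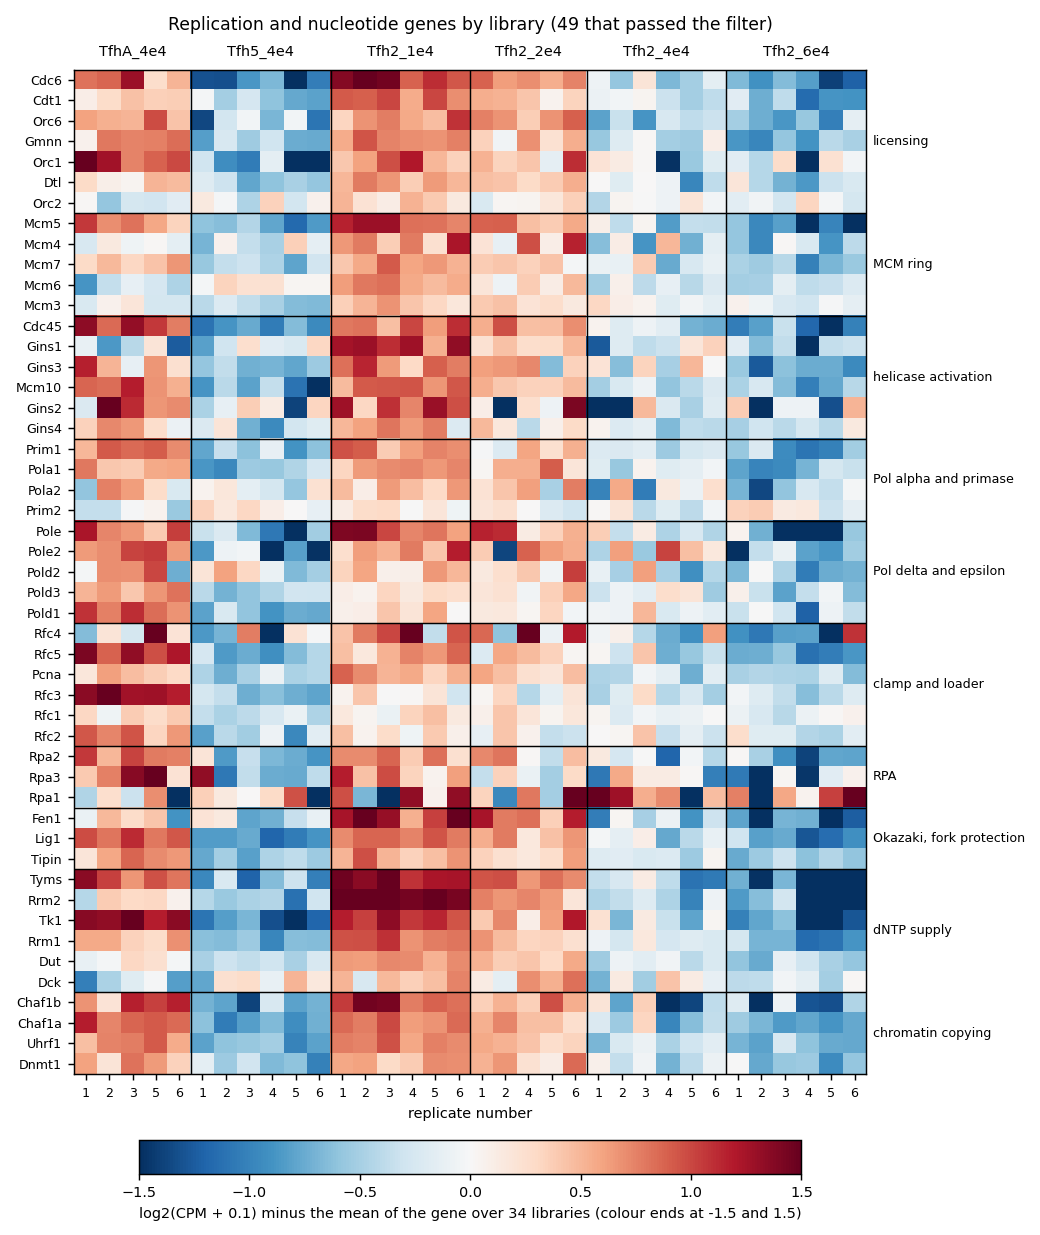
Level of each of the 49 tested members in each of the 34 libraries, as log2(CPM + 0.1) minus the mean of the gene, grouped by role in rows and by group in columns. TfhA_4e4 columns are above the gene mean in most rows, and Tfh2 columns go below it as the number rises to 6e4.

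**Figure D4:**
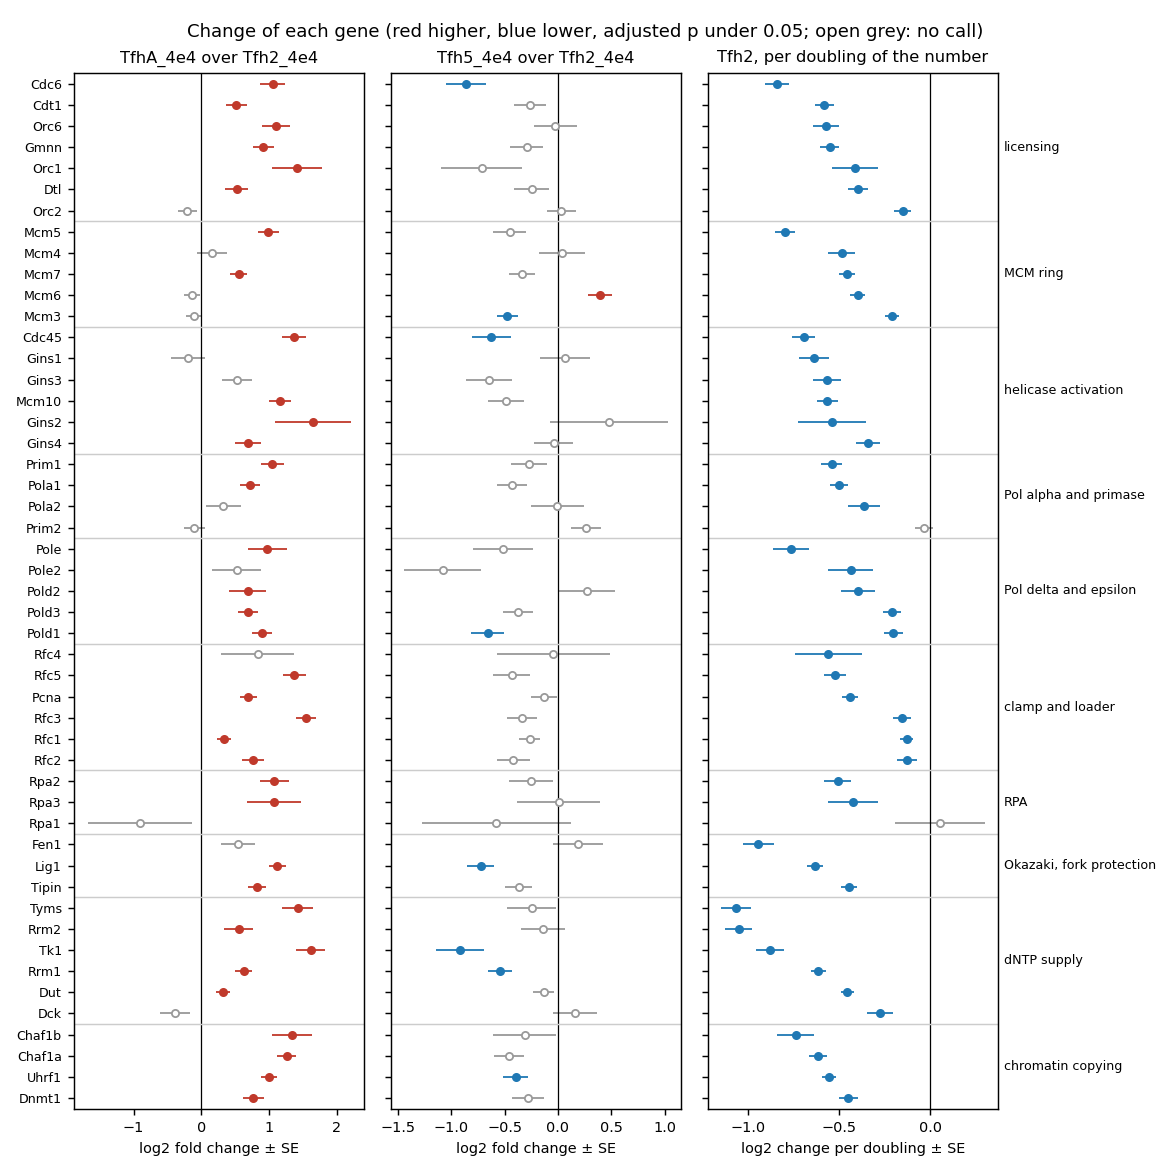
Log2 change with its standard error for each tested member in TfhA_4e4 over Tfh2_4e4, in Tfh5_4e4 over Tfh2_4e4 and per doubling of the number within Tfh2. Coloured points passed the test at an adjusted p under 0.05 and open grey points did not: 36 members are called in the first panel, 9 in the second and 47 in the third.

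Genes of the licensing role were higher in TfhA_4e4 than in Tfh2_4e4 in 6 of 7 members (median 0.92) and fell with the Tfh2 number in 7 of 7 (median -0.55 per doubling). The 6 include Gmnn and Dtl, which restrain Cdt1, so the role is not made up only of genes that promote licensing. Cdc6, the ATPase that helps the origin recognition complex load the MCM ring, had the steepest slope among them. Its levels were 27.7, 28.8, 38.5, 18.8 and 22.3 CPM in TfhA_4e4. Tfh5_4e4 had 4.27 to 9.77 CPM (median 6.96). Within Tfh2 it ran at 29.0 to 45.6 CPM (median 37.5) at 1e4, at 29.2, 24.4, 25.5, 22.9 and 26.3 CPM at 2e4, at 9.77 to 17.9 CPM (median 12.6) at 4e4 and at 5.86 to 9.96 CPM (median 8.58) at 6e4. Every TfhA_4e4 library was above every Tfh2_4e4 library, and every Tfh5_4e4 library was at or below the lowest Tfh2_4e4 library. The log2 fold change was 1.06 ± 0.19 (SE) for TfhA_4e4 over Tfh2_4e4 (edgeR adjusted p = 1.1e-05) and -0.86 ± 0.19 for Tfh5_4e4 over Tfh2_4e4 (edgeR adjusted p = 0.0038). The slope was -0.84 ± 0.06 per doubling (edgeR adjusted p = 5.1e-15).

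Of the 3 subunits of the origin recognition complex among the members, Orc1 and Orc6 were higher in TfhA_4e4 than in Tfh2_4e4 and Orc2 was not called. Orc1, its ATPase subunit, averaged 7.19 ± 2.17 CPM in TfhA_4e4 (SD, n = 5), 1.59 ± 0.982 CPM in Tfh5_4e4 and 2.68 ± 0.966 CPM in Tfh2_4e4 (n = 6 each). Its log2 fold change over Tfh2_4e4 in TfhA_4e4 was 1.41 ± 0.37 (edgeR adjusted p = 0.0023), the largest of the licensing genes. Orc2, a core subunit that holds the complex together, averaged 24.96 ± 3.75 CPM in TfhA_4e4 and 28.7 ± 3.96 CPM in Tfh2_4e4, a log2 fold change of -0.21 that did not pass the test. Orc2 was lower in TfhA_4e4 than in Tfh2_1e4,, with a log2 fold change of -0.57 ± 0.14 (edgeR adjusted p = 0.0011). Its last 500 transcribed bases overlap Nif3l1 on the other strand, and since the strand setting of the counting is not given in the sources used here, reads of such pairs cannot be told apart. The same holds below for Mcm7 with Cops6, Gins2 with Gse1, Rfc4 with Eif4a2, Rfc5 with Wsb2 and Fen1 with Gm10143.

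The MCM ring had the smallest share of members called between TfhA_4e4 and Tfh2_4e4 of the 10 roles. In it, 2 of 5 tested members were higher (median 0.15), although all 5 fell with the Tfh2 number (median -0.46 per doubling). The ring's summed level in TfhA_4e4 was 1.15 of that in Tfh2_4e4 and 0.702 of that in Tfh2_1e4. Mcm5 had the largest log2 fold change of the ring, at 89.3 ± 16.7 CPM in TfhA_4e4 (SD, n = 5) and 44.9 ± 10.2 CPM in Tfh2_4e4 (n = 6), a log2 fold change of 0.99 ± 0.16 (edgeR adjusted p = 3.0e-06). Mcm3, with the highest level of the ring, averaged 242 ± 36.1 CPM in TfhA_4e4, 188 ± 23.1 CPM in Tfh5_4e4 and 262 ± 34.3 CPM in Tfh2_4e4. It was lower in Tfh5_4e4 than in Tfh2_4e4, with a log2 fold change of -0.48 ± 0.10 (edgeR adjusted p = 0.0028), with no overlap between the 6 libraries of each. Its -0.11 in TfhA_4e4 over Tfh2_4e4 did not pass the test.

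Mcm6, a subunit of the same ring, was the only one of the 49 tested members called higher in Tfh5_4e4 than in Tfh2_4e4. Levels were 94.7, 136, 160.3, 147 and 127 CPM in TfhA_4e4. Tfh5_4e4 libraries had 172 to 219.9 CPM (median 192). Tfh2 libraries had 243 to 309.7 CPM (median 265) at 1e4, 198, 166, 228, 189 and 244 CPM at 2e4, 122 to 184 CPM (median 142) at 4e4 and 123 to 158 CPM (median 136) at 6e4. All Tfh5_4e4 libraries were above all TfhA_4e4 libraries, and they overlapped the upper end of Tfh2_4e4. Mcm6 was lower in TfhA_4e4 than in Tfh5_4e4, with a log2 fold change of -0.54 ± 0.12 (edgeR adjusted p = 0.00022, or 0.196 with the mitochondrial share as a covariate), and higher in Tfh5_4e4 than in Tfh2_4e4 by 0.40 ± 0.11 (edgeR adjusted p = 0.034). The second call was lost in 7 of 12 fits that each left out 1 library, with adjusted p up to 0.116. Between TfhA_4e4 and Tfh2_4e4 the log2 fold change was -0.14 and did not pass the test, while Mcm6 and Mcm5 both fell with the Tfh2 number, at -0.40 ± 0.04 and -0.80 ± 0.06 per doubling (edgeR adjusted p = 1.2e-11 and 3.9e-16).

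Of the helicase activators, 4 of 6 were higher in TfhA_4e4 than in Tfh2_4e4 (median 0.92) and 6 of 6 fell with the Tfh2 number (median -0.57). Cdc45, which joins the ring to form the active helicase, averaged 28.7 ± 5.21 CPM in TfhA_4e4, 7.21 ± 0.898 CPM in Tfh5_4e4 and 11.1 ± 2.46 CPM in Tfh2_4e4. Its log2 fold change was 1.37 ± 0.18 in TfhA_4e4 over Tfh2_4e4 (edgeR adjusted p = 2.7e-08). The log2 fold change of -0.62 ± 0.18 in Tfh5_4e4 over Tfh2_4e4 (edgeR adjusted p = 0.042) was lost in 9 of 12 fits without 1 library, with adjusted p up to 0.0984. Mcm10, which helps switch the helicase on, averaged 36.7 ± 6.28 CPM in TfhA_4e4 and 16.3 ± 2.23 CPM in Tfh2_4e4, a log2 fold change of 1.16 ± 0.17 (edgeR adjusted p = 2.7e-07).

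Of the 4 GINS subunits, which bind the ring beside Cdc45, Gins2 and Gins4 were called higher in TfhA_4e4 than in Tfh2_4e4. Gins2 had the largest log2 fold change of all members in TfhA_4e4 over Tfh2_4e4, at a level of few counts. It had 1.19, 6.01, 3.15, 2.28 and 2.35 CPM in TfhA_4e4. Tfh5_4e4 had 0.475 to 1.83 CPM (median 1.40). Tfh2 had 1.77 to 3.57 CPM (median 2.98) at 1e4, 1.51, 0.385, 1.69, 1.32 and 3.89 CPM at 2e4, 0 to 1.99 CPM (median 1.08) at 4e4 and 0.431 to 2.03 CPM (median 1.32) at 6e4. TfhA_4e4 and Tfh2_4e4 overlapped, and TfhA_4e4 replicate 2 was high. The log2 fold change was 1.65 ± 0.56 (edgeR adjusted p = 0.020), and 1.24 without that library (edgeR adjusted p = 0.11). With the mitochondrial share as a covariate the adjusted p was 0.0733. Gins1 showed -0.19 in the same comparison, which did not pass the test, and was lower in TfhA_4e4 than in Tfh2_1e4, with a log2 fold change of -1.54 ± 0.25 (edgeR adjusted p = 2.3e-06).

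For polymerase alpha and primase, 2 of 4 members were higher in TfhA_4e4 than in Tfh2_4e4 (median 0.52), and 3 of 4 fell with the Tfh2 number (median -0.43). Pola1, the catalytic subunit of polymerase alpha, averaged 61.0 ± 7.16 CPM in TfhA_4e4 and 37.1 ± 5.11 CPM in Tfh2_4e4, a log2 fold change of 0.72 ± 0.14 (edgeR adjusted p = 0.00010). With the mitochondrial share as a covariate the adjusted p for Pola1 was 0.322. Prim1, the catalytic primase subunit, averaged 23.0 ± 2.67 CPM in TfhA_4e4 and 11.1 ± 1.015 CPM in Tfh2_4e4, a log2 fold change of 1.05 ± 0.17 (edgeR adjusted p = 3.2e-06).

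The replicative polymerases delta and epsilon had 4 of 5 members higher in TfhA_4e4 than in Tfh2_4e4 (median 0.69), and all 5 fell with the Tfh2 number (median -0.40). Their summed level in TfhA_4e4 was 1.76 of that in Tfh2_4e4 and 1.28 of that in Tfh2_1e4. Pold1, the catalytic subunit of polymerase delta, averaged 59.9 ± 8.30 CPM in TfhA_4e4, 20.3 ± 3.71 CPM in Tfh5_4e4, 37.9 ± 6.20 CPM in Tfh2_1e4 and 32.1 ± 6.58 CPM in Tfh2_4e4. It was higher in TfhA_4e4 than in Tfh2_4e4 by 0.90 ± 0.15 (edgeR adjusted p = 6.7e-06) and than in Tfh2_1e4 by 0.66 ± 0.15 (edgeR adjusted p = 0.00040), and lower in Tfh5_4e4 than in Tfh2_4e4, with a log2 fold change of -0.66 ± 0.15 (edgeR adjusted p = 0.0064). Its decline with the Tfh2 number was shallow, -0.20 ± 0.05 per doubling (edgeR adjusted p = 0.0014), and had an adjusted p of 0.223 over 1e4, 2e4 and 4e4 alone. Pole, the catalytic subunit of polymerase epsilon, averaged 20.6 ± 4.69 CPM in TfhA_4e4 and 10.4 ± 2.68 CPM in Tfh2_4e4, a log2 fold change of 0.98 ± 0.28 (edgeR adjusted p = 0.0062). Its slope was steeper than that of Pold1 in size, -0.77 ± 0.10 per doubling (edgeR adjusted p = 1.2e-08), and the difference between these slopes was not tested.

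Most of the clamp and its loader was higher in TfhA_4e4 than in Tfh2_4e4. Of Pcna and the RFC subunits, 5 of 6 were higher in TfhA_4e4 than in Tfh2_4e4 (median 0.80) and all 6 fell with the Tfh2 number (median -0.30). Rfc3, a small subunit of the loader, had 82.4, 91.8, 77.2, 78.1 and 73.4 CPM in TfhA_4e4. It had 18.6 to 26.8 CPM (median 20.1) in Tfh5_4e4. In Tfh2 it had 26.2 to 43.0 CPM (median 33.1) at 1e4, 32.9, 40.4, 23.9, 29.1 and 37.0 CPM at 2e4, 22.7 to 39.4 CPM (median 25.6) at 4e4 and 20.8 to 31.4 CPM (median 26.6) at 6e4. Every TfhA_4e4 library was above every library of the other 5 groups, and the Tfh2 groups overlapped each other. The log2 fold change was 1.55 ± 0.14 over Tfh2_4e4 (2.93-fold, edgeR adjusted p = 3.5e-12), 1.89 ± 0.15 over Tfh5_4e4 (edgeR adjusted p = 8.5e-15) and 1.24 ± 0.14 over Tfh2_1e4 (edgeR adjusted p = 6.7e-10). Across the Tfh2 numbers Rfc3 changed little, at -0.16 ± 0.05 per doubling (edgeR adjusted p = 0.0082), and over 1e4, 2e4 and 4e4 alone its slope did not pass the test (adjusted p = 0.0804).

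Other subunits of the loader followed in part. Rfc5 averaged 40.1 ± 6.31 CPM in TfhA_4e4, 26.5 ± 4.44 CPM in Tfh2_1e4 and 15.4 ± 4.73 CPM in Tfh2_4e4, and was higher in TfhA_4e4 than in Tfh2_4e4 by 1.38 ± 0.17 (edgeR adjusted p = 1.3e-08) and than in Tfh2_1e4 by 0.59 ± 0.17 (edgeR adjusted p = 0.0039, or 0.231 with the mitochondrial share as a covariate). Rfc2 was higher in TfhA_4e4 than in Tfh2_1e4 by 0.52 ± 0.16 (edgeR adjusted p = 0.0065), with means of 65.9 ± 10.9 CPM in TfhA_4e4 and 45.9 ± 6.59 CPM in Tfh2_1e4. Its slope of -0.13 in Tfh2 lost its call in 11 of 23 fits without 1 library, with adjusted p up to 0.096. Rfc1, the large subunit, averaged 124 ± 14.9 CPM in TfhA_4e4 and 98.1 ± 6.00 CPM in Tfh2_4e4, a log2 fold change of 0.34 ± 0.10 (edgeR adjusted p = 0.011) that had an adjusted p of 0.871 with the mitochondrial share as a covariate. Rfc4, at 2.53 ± 2.30 CPM in TfhA_4e4 and 1.45 ± 0.632 CPM in Tfh2_4e4, gave 0.83 ± 0.54, which did not pass the test.

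RPA coats the single strands that unwinding exposes. Rpa2 averaged 42.7 ± 6.56 CPM in TfhA_4e4 and 20.3 ± 5.70 CPM in Tfh2_4e4, a log2 fold change of 1.08 ± 0.21 (edgeR adjusted p = 7.2e-05). In all, 2 of the 3 subunits were higher in TfhA_4e4 than in Tfh2_4e4 (median 1.07) and 2 fell with the Tfh2 number (median -0.42). Rpa1, at 0 to 2.87 CPM per library, was the one that passed neither test.

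Of the genes that finish the lagging strand or protect the fork, 2 of 3 were higher in TfhA_4e4 than in Tfh2_4e4 (median 0.82), and all 3 fell with the Tfh2 number (median -0.63). Lig1, the ligase that seals Okazaki fragments, had 322, 285, 356, 284 and 313 CPM in TfhA_4e4. It had 71.8 to 96.6 CPM (median 90.0) in Tfh5_4e4. Its Tfh2 levels were 268 to 316 CPM (median 289.7) at 1e4, 239.9, 282, 182, 222 and 259 CPM at 2e4, 96.4 to 175 CPM (median 151) at 4e4 and 67.0 to 133 CPM (median 90.1) at 6e4. TfhA_4e4 lay with Tfh2_1e4 and above all of Tfh2_4e4, and Tfh5_4e4 lay with Tfh2_6e4. The log2 fold change was 1.13 ± 0.13 in TfhA_4e4 over Tfh2_4e4 (edgeR adjusted p = 1.8e-09), -0.72 ± 0.13 in Tfh5_4e4 over Tfh2_4e4 (edgeR adjusted p = 0.00025) and 1.85 ± 0.13 in TfhA_4e4 over Tfh5_4e4 (edgeR adjusted p = 1.0e-15). Against Tfh2_1e4, TfhA_4e4 showed 0.11, which did not pass the test.

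Fen1, the nuclease that trims the flap before Lig1 seals the nick, had no called difference between TfhA_4e4 and Tfh2_4e4. It had 10.7, 16.2, 13.9, 15.3 and 6.11 CPM in TfhA_4e4. Tfh5_4e4 had 6.59 to 13.3 CPM (median 9.82). Tfh2 had 16.7 to 34.8 CPM (median 27.9) at 1e4, 27.2, 19.7, 20.5, 14.8 and 26.1 CPM at 2e4, 5.53 to 11.7 CPM (median 8.65) at 4e4 and 2.18 to 7.03 CPM (median 5.71) at 6e4. TfhA_4e4 overlapped Tfh5_4e4 and Tfh2_4e4 and lay below every Tfh2_1e4 library. Fen1 was lower in TfhA_4e4 than in Tfh2_1e4, with a log2 fold change of -1.11 ± 0.24 (edgeR adjusted p = 0.00021, or 0.499 with the mitochondrial share as a covariate), and fell by 0.95 ± 0.09 on the log2 scale per doubling of the Tfh2 number (edgeR adjusted p = 7.9e-13). Over Tfh2_4e4 its 0.54 did not pass the test (edgeR adjusted p = 0.093), and it passed without TfhA_4e4 replicate 6, at 0.70 (edgeR adjusted p = 0.030).

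The enzymes of deoxynucleotide supply had the steepest median slope of the 10 roles within Tfh2, with 6 of 6 falling (median -0.75), and 5 of 6 were higher in TfhA_4e4 than in Tfh2_4e4 (median 0.59). Tyms, which makes thymidylate from deoxyuridylate, had 26.3, 20.9, 16.2, 19.9 and 17.9 CPM in TfhA_4e4. It had 4.40 to 8.70 CPM (median 5.83) in Tfh5_4e4. In Tfh2 it had 21.8 to 31.1 CPM (median 25.3) at 1e4, 19.7, 19.998, 16.04, 18.2 and 16.8 CPM at 2e4, 4.67 to 11.1 CPM (median 7.87) at 4e4 and 1.77 to 6.30 CPM (median 3.25) at 6e4. The 1e4 and 2e4 libraries of Tfh2 did not overlap those at 4e4 and 6e4, and all TfhA_4e4 libraries were above all at 4e4. The slope was -1.07 ± 0.08 per doubling (edgeR adjusted p = 5.3e-15), and the step to Tfh2_4e4 over Tfh2_2e4 alone was -1.27 ± 0.23 (edgeR adjusted p = 7.7e-05). Over Tfh2_4e4, Tyms was 1.42 ± 0.23 higher in TfhA_4e4 on the log2 scale (edgeR adjusted p = 2.7e-06), and -0.25 in Tfh5_4e4, which did not pass the test.

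Tk1, the kinase that salvages thymidine, had the largest log2 fold change of the 49 tested members between TfhA_4e4 and Tfh5_4e4. Its levels were 44.2, 43.3, 61.0, 38.9 and 44.0 CPM in TfhA_4e4. They were 4.91 to 10.6 CPM (median 7.71) in Tfh5_4e4. In Tfh2 they were 32.9 to 43.6 CPM (median 36.9) at 1e4, 22.6, 28.3, 18.4, 26.3 and 39.4 CPM at 2e4, 9.83 to 20.1 CPM (median 15.6) at 4e4 and 3.09 to 11.1 CPM (median 7.72) at 6e4. No TfhA_4e4 library overlapped Tfh5_4e4, Tfh2_4e4 or Tfh2_6e4. The log2 fold change was 2.54 ± 0.23 in TfhA_4e4 over Tfh5_4e4 (5.8-fold, edgeR adjusted p = 1.2e-12), 1.62 ± 0.22 in TfhA_4e4 over Tfh2_4e4 (edgeR adjusted p = 6.4e-08) and -0.92 ± 0.22 in Tfh5_4e4 over Tfh2_4e4 (edgeR adjusted p = 0.012). Within Tfh2 the slope was -0.88 ± 0.08 (edgeR adjusted p = 4.1e-13), and the step to Tfh2_6e4 over Tfh2_4e4 was -1.06 ± 0.23 (edgeR adjusted p = 0.0076, or 0.068 in a fit of those groups alone).

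Ribonucleotide reductase turns ribonucleotides into deoxyribonucleotides, and its small subunit Rrm2 limits its activity in S phase. Rrm2 had 11.3, 19.9, 18.9, 18.9 and 15.99 CPM in TfhA_4e4. It had 6.96 to 12.4 CPM (median 11.1) in Tfh5_4e4. In Tfh2 it had 41.3 to 58.3 CPM (median 47.9) at 1e4, 25.9, 24.4, 25.5, 23.8 and 17.4 CPM at 2e4, 7.58 to 14.5 CPM (median 11.5) at 4e4 and 3.80 to 12.6 CPM (median 6.37) at 6e4. Tfh2_1e4 stood above all other groups with no overlap, TfhA_4e4 included. Rrm2 was lower in TfhA_4e4 than in Tfh2_1e4, with a log2 fold change of -1.495 ± 0.21 (edgeR adjusted p = 1.0e-07, or 0.244 with the mitochondrial share as a covariate), and its slope was -1.05 ± 0.07 per doubling (edgeR adjusted p = 2.6e-16). It fell at both doublings, by 1.04 ± 0.20 in Tfh2_2e4 over Tfh2_1e4 (edgeR adjusted p = 0.00046) and by 1.003 ± 0.21 in Tfh2_4e4 over Tfh2_2e4 (edgeR adjusted p = 0.00055). The 0.55 ± 0.21 in TfhA_4e4 over Tfh2_4e4 (edgeR adjusted p = 0.042) was lost in 8 of 11 fits without 1 library, with adjusted p up to 0.115.

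The large subunit, Rrm1, averaged 139 ± 16.3 CPM in TfhA_4e4, 61.9 ± 6.09 CPM in Tfh5_4e4 and 90.3 ± 10.7 CPM in Tfh2_4e4. It was lower in Tfh5_4e4 than in Tfh2_4e4, with a log2 fold change of -0.54 ± 0.12 (edgeR adjusted p = 0.0030). Rrm2 gave -0.14 there and did not pass the test. Dut, which removes dUTP before it can enter DNA, averaged 132 ± 17.5 CPM in TfhA_4e4, 196 ± 9.94 CPM in Tfh2_1e4 and 106 ± 13.6 CPM in Tfh2_4e4. It was higher in TfhA_4e4 than in Tfh2_4e4 by 0.32 ± 0.10 (edgeR adjusted p = 0.014), a call lost in 2 of 11 fits without 1 library (adjusted p up to 0.0735), and lower than in Tfh2_1e4, with a log2 fold change of -0.57 ± 0.10 (edgeR adjusted p = 1.5e-05, or 0.0854 with the mitochondrial share as a covariate). Dck, which salvages deoxycytidine, was lower in TfhA_4e4 than in Tfh5_4e4, with means of 10.9 ± 3.15 CPM in TfhA_4e4 and 16.2 ± 4.40 CPM in Tfh5_4e4. That log2 fold change of -0.54 ± 0.22 (edgeR adjusted p = 0.047) was lost in 7 of 11 fits without 1 library, with adjusted p up to 0.154.

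The genes that copy chromatin marks behind the fork were all 4 higher in TfhA_4e4 than in Tfh2_4e4 (median 1.13), and all 4 fell with the Tfh2 number (median -0.59). Chaf1b, a subunit of the assembly factor that places new histones, averaged 10.4 ± 2.702 CPM in TfhA_4e4 and 4.11 ± 2.27 CPM in Tfh2_4e4, a log2 fold change of 1.34 ± 0.30 (edgeR adjusted p = 0.00033). Dnmt1, the methyltransferase that copies CpG methylation, averaged 74.1 ± 12.5 CPM in TfhA_4e4 and 43.6 ± 8.32 CPM in Tfh2_4e4, a log2 fold change of 0.77 ± 0.15 (edgeR adjusted p = 8.7e-05). Uhrf1, which brings Dnmt1 to new DNA, averaged 26.7 ± 3.36 CPM in Tfh5_4e4 and 35.2 ± 5.20 CPM in Tfh2_4e4. Its log2 fold change of -0.40 ± 0.12 (edgeR adjusted p = 0.043) was lost in 9 of 12 fits without 1 library, with adjusted p up to 0.123.

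**Figure D5:**
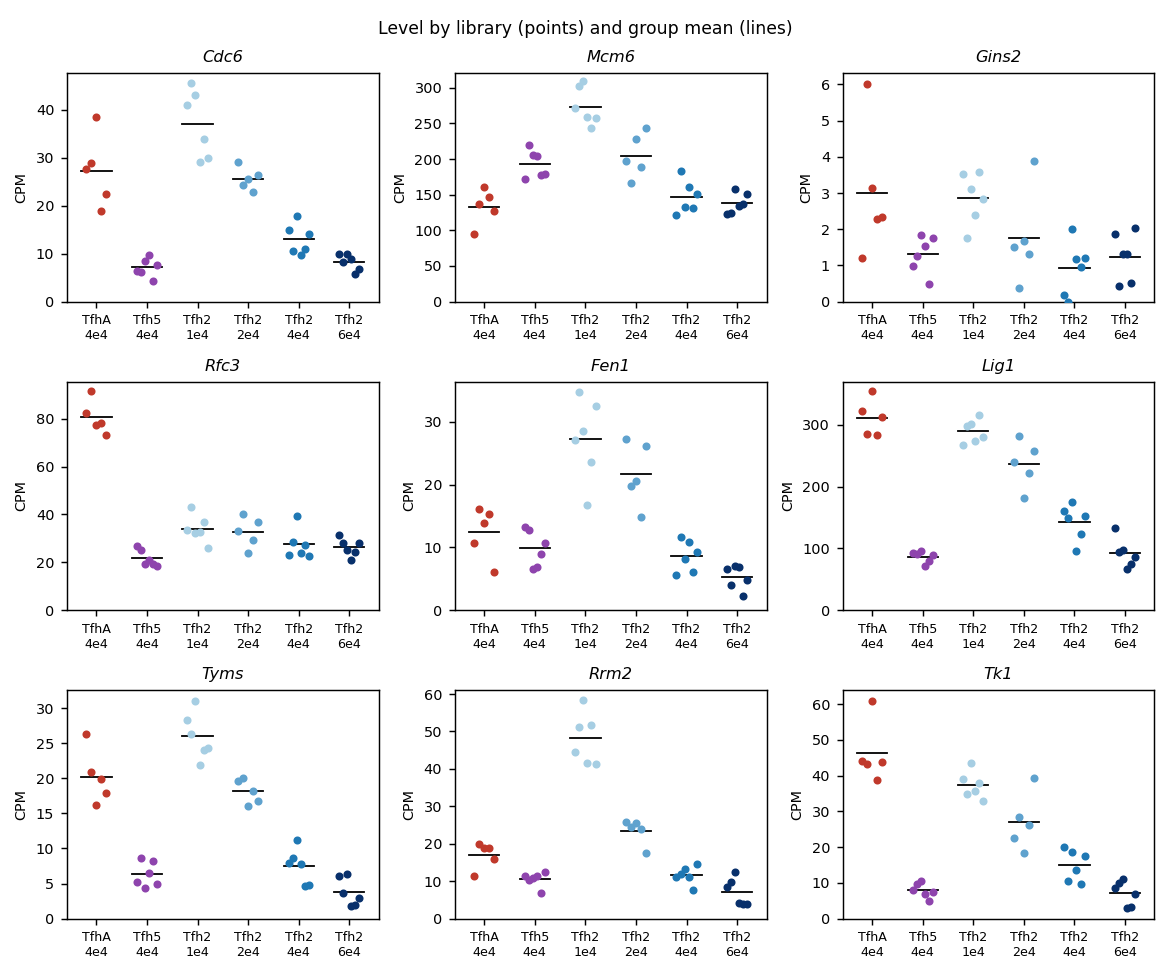
Level in CPM of 9 members in each library, with a line for the group mean. For Rfc3 the TfhA_4e4 libraries, 73.4 to 91.8 CPM, lie above all others, while for Rrm2 the Tfh2_1e4 libraries, 41.3 to 58.3 CPM, do.

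The roles did not keep one ratio between TfhA_4e4 and the Tfh2 groups. Against Tfh2_1e4, 5 members of the clamp loader and of polymerase delta were higher in TfhA_4e4 and none of those roles was lower. In the same comparison 0 members were higher and 3 lower in licensing, 3 lower in the MCM ring, and 4 lower in deoxynucleotide supply. Of all tested genes, 21.7% were called higher and 20% lower there, and of the 49 tested members 36.7% were called in either direction. Calls in both directions are thus common in this comparison, and differences between roles were not tested. With the mitochondrial share as a covariate, Pold1, Rfc2 and Rfc3 stayed called higher and Orc2, Mcm6 and Gins1 called lower, while Pold3, Rfc5 and the 4 genes of deoxynucleotide supply were no longer called. That share does not overlap between TfhA_4e4 and the other groups, so this fit cannot tell it apart from the TfhA code. Summed levels in TfhA_4e4 were 1.26 of Tfh2_1e4 for the clamp and loader, 1.023 for the lagging-strand and fork genes, 0.797 for licensing and 0.717 for deoxynucleotide supply. Over the 49 tested members, the slope within Tfh2 and the log2 fold change of TfhA_4e4 over Tfh5_4e4, which share no library, had a Pearson correlation of -0.439 and a Spearman correlation of -0.443, against 0.0708 and -0.0186 over all 11357 tested genes. Genes are not independent replicates, and these values carry no test.

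Median changes were also read by whether a member holds an E2F word, with no test of the difference. For TfhA_4e4 over Tfh2_4e4 the median log2 fold change was 0.77 in the 27 members with a word and 0.70 in the 13 tested members with a window and no word. The medians for TfhA_4e4 over Tfh5_4e4 were 1.17 with a word and 0.83 without, and for the slope within Tfh2 -0.51 and -0.46. For Tfh5_4e4 over Tfh2_4e4 they were -0.34 with a word and -0.13 without.

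Genes next to these pathways were read from lists of the same kind. Of 33 tested genes with other roles in replication, 14 were higher and 2 lower in TfhA_4e4 than in Tfh2_4e4, and 22 fell and 1 rose with the Tfh2 number. Among all tested genes, 15.5% were higher and 17.4% lower in the first, and 22.8% fell and 24.1% rose in the second. Pclaf, a PCNA-binding factor, showed a log2 fold change of 1.39 ± 0.12 in TfhA_4e4 over Tfh2_4e4 (edgeR adjusted p = 2.8e-13), -0.57 ± 0.11 in Tfh5_4e4 over Tfh2_4e4 (edgeR adjusted p = 0.0013) and a slope of -0.80 ± 0.04 (edgeR adjusted p = 1.0e-20). Wdhd1, which ties the helicase to polymerase alpha, was 1.12 ± 0.19 higher in TfhA_4e4 than in Tfh2_4e4 (edgeR adjusted p = 9.5e-06).

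Other genes of nucleotide synthesis, among them the purine and pyrimidine pathways that also feed RNA, did not move as one. Of 33 tested, 11 were higher and 6 lower in TfhA_4e4 than in Tfh2_4e4, 0 differed between Tfh5_4e4 and Tfh2_4e4 by edgeR, and 17 fell and 5 rose with the Tfh2 number. The shares over all tested genes were 15.5% higher and 17.4% lower, 3.11% called, and 22.8% falling and 24.1% rising. Calls in both directions are thus also what all tested genes show. Their summed level was 0.995 of Tfh2_4e4 in TfhA_4e4. Prps1, which makes the sugar phosphate for new nucleotides, was lower in TfhA_4e4 than in Tfh2_4e4, with a log2 fold change of -1.24 ± 0.12 (edgeR adjusted p = 8.4e-12). Samhd1, a hydrolase that degrades deoxynucleotides, rose with the Tfh2 number by 0.77 ± 0.03 per doubling (edgeR adjusted p = 6.1e-25).

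Mitotic genes, which act after S phase, were also mostly higher in TfhA_4e4 than in Tfh2_4e4. Of 28, 21 were higher and 0 lower in TfhA_4e4 than in Tfh2_4e4 (15.5% and 17.4% of all tested genes), and 28 fell with the Tfh2 number (22.8% of all tested genes). Against Tfh2_1e4, 1 was higher and 16 lower in TfhA_4e4 (21.7% and 20% of all tested genes). Plk1, a mitotic kinase, was 0.99 ± 0.17 higher in TfhA_4e4 than in Tfh2_4e4 (edgeR adjusted p = 4.9e-06), with a slope of -0.63 ± 0.06 in Tfh2 (edgeR adjusted p = 7.6e-13).

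Regulators of the G1 to S transition moved in both directions. Of 22 tested, 9 were higher and 2 lower in TfhA_4e4 than in Tfh2_4e4 (15.5% and 17.4% of all tested genes). With the Tfh2 number, 13 fell and 7 rose (22.8% and 24.1% of all tested genes). Although 13 fell, the summed level of the list rose from 1355 CPM in Tfh2_1e4 to 2045 CPM in Tfh2_6e4, opposite to the members. Ccnd2, a cyclin with the most counts in the list, was 0.68 ± 0.10 higher in Tfh2_2e4 than in Tfh2_1e4 (edgeR adjusted p = 1.9e-06). It was 1.36 ± 0.10 higher in TfhA_4e4 than in Tfh2_1e4 (edgeR adjusted p = 5.8e-16). Ccne1, the cyclin that drives entry into S phase, was 0.78 ± 0.18 higher in TfhA_4e4 than in Tfh2_4e4 (edgeR adjusted p = 0.00075) with a slope of -0.45 ± 0.06 (edgeR adjusted p = 5.0e-08). The inhibitor Cdkn1b was lower in TfhA_4e4 than in Tfh2_4e4, with a log2 fold change of -0.93 ± 0.11 (edgeR adjusted p = 9.7e-10). The inhibitor Cdkn1a rose with the Tfh2 number by 0.95 ± 0.05 per doubling (edgeR adjusted p = 1.9e-21). It was lower in Tfh5_4e4 than in Tfh2_4e4, with a log2 fold change of -0.57 ± 0.12 (edgeR adjusted p = 0.0029). In TfhA_4e4 it was 0.98 ± 0.13 higher than in Tfh5_4e4 (edgeR adjusted p = 1.5e-08). A link between Cdkn1a and the members was not tested. Cdkn1a was also 2.37 ± 0.13 higher in TfhA_4e4 than in Tfh2_1e4 on the log2 scale (edgeR adjusted p = 6.8e-20).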

How the data were processed

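The deposited files hold whole-number counts per gene identifier, 1 file per library, which the authors made from 3′ mRNA-Seq libraries (50 ng total RNA, Lexogen FWD kit, per the labels' protocols). Per the submitters' processing notes, mm10, featureCounts 1.6.4 and STAR 2.7.2b were used, in roles that are not given. Identifiers were joined to symbols for 25275 of 27179 and the unmatched ones hold 48.8% of counts. A joined table that repeats the deposited counts was not used.

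Counts were fitted in 1 model over 34 libraries in 6 groups with edgeR 4.0.16 in R 4.3.3 (TMM, filterByExpr by group, quasi-likelihood test, two-sided, Benjamini-Hochberg over 11357 genes, threshold 0.05). Fold changes are log2 ± SE, and levels are CPM on TMM-scaled totals. The slope is linear over the 4 Tfh2 means on the log2 of the label number. No pair of libraries within a group agreed within sampling noise, and pairs across groups were not checked. The scripts were tested on simulated data. DESeq2 1.42.0, limma-voom 3.58.1, other scalings, no filter, covariates and libraries left out were tried.

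The members and lists were chosen with earlier results of these data known. Named are, per role, the member with the highest level, with the largest called slope and with the largest called TfhA_4e4 over Tfh2_4e4 change, every member called against the majority, and Mcm2; all values by library are given for the largest 3 changes of 3 comparisons. Cdt1, Dtl, Gins1, Gins4, Gmnn, Mcm4, Orc6, Prim2, Rpa1, Rrm1 and Uhrf1, and the windows printed, were named after their values were seen. A planned comparison of protein sequences was not run.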

Additional observations from a re-analysis of the deposited data

Results flagged for a closer look

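Of 60 sets of values checked, 5 held a library far from the others of its group, and chance gives about 1 in 20. TfhA_4e4 replicate 3 had 61.0 CPM of Tk1, with the nearest other library at 44.2 CPM. The same library had a summed level of the 50 genes of 2869 CPM, with the nearest other at 2616 CPM. Tfh2_4e4 replicate 3, which stood apart in Nrn1 and S100a6, had 39.4 CPM of Rfc3, with the nearest other at 28.4 CPM. Tfh2_2e4 replicate 6, which also stood apart in those genes, had the lowest Rrm2 of its group, 17.4 CPM, with the nearest other at 23.8 CPM. Tfh5_4e4 replicate 5 had the lowest Rrm2 of its group, 6.96 CPM, with the nearest other at 10.4 CPM.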

How the results depend on the processing

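With each library left out in turn, the number of members called ran between 31 and 37 for TfhA_4e4 over Tfh2_4e4, 6 and 11 for Tfh5_4e4 over Tfh2_4e4, 37 and 39 for TfhA_4e4 over Tfh5_4e4, 15 and 19 for TfhA_4e4 over Tfh2_1e4, 46 and 47 for the slope, 2 and 4 for Tfh2_2e4 over Tfh2_1e4 (2 without Tfh2_2e4 replicate 2 or 5), 25 and 30 for Tfh2_4e4 over Tfh2_2e4, and 4 and 10 for Tfh2_6e4 over Tfh2_4e4. In the last, 4 were called without Tfh2_4e4 replicate 1 or 3 or Tfh2_6e4 replicate 2, 4 or 5, and 5 without Tfh2_6e4 replicate 6. The median difference between the doublings ran between -0.44 and -0.24, with -0.24 reached without Tfh2_2e4 replicate 6, and was -0.25 without both libraries that stood apart. Tfh2_6e4 over Tfh2_4e4 gave 5 by limma-voom, 4 without both libraries that stood apart, 3 in a fit of its own groups, and 14 with the range of replicate numbers as a factor. Tfh2_2e4 over Tfh2_1e4 gave 7 by limma-voom and 7 in a fit of its own groups. With the mitochondrial share as a covariate, TfhA_4e4 over Tfh2_4e4 had 31 calls and a median of 1.04, TfhA_4e4 over Tfh2_1e4 had 8 calls and a median of 0.106, and 10 single values changed sign: over Tfh2_4e4 Rfc4 (-0.0043), Mcm3 (0.27) and Mcm6 (0.095), over Tfh2_1e4 Tyms (0.26), Cdc6 (0.30), Mcm3 (0.0059), Prim2 (0.23) and Cdt1 (0.026), and for the slope Prim2 (0.027) and Rpa1 (-0.034). The Rpa1 slope ran between -0.049 and 0.132 with 1 library left out, and was negative without Tfh2_1e4 replicate 2 or 3 or Tfh2_6e4 replicate 6. The slope over 1e4, 2e4 and 4e4 gave 37 calls and a median of -0.45. The cause was not tested. Libraries with the same replicate number were not paired: deviations from group means correlated at 0.0494 on average over 80 pairs, 15 of them above 0.1. Pairs of other numbers within 1 to 3 or within 4 to 6 averaged 0.0288, with 15 of 160 above 0.1. Pairs across these ranges averaged -0.0354, with 2 of 241 above 0.1. Libraries within a range were thus somewhat more alike, which the main fit did not model. The labels do not say what the ranges stand for. With a replicate block the calls were 34, 12, 40, 19, 47, 5, 30 and 14 in the order above. The share of all tested genes called in the same fit is not given beside the member counts of this paragraph. A change in such a count may therefore be one of the whole fit and not of the members. Member counts of 7987 or more per library limit the low genes, Mcm2, Gins2, Rfc4 and Rpa1 among them.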
